A study of Homo sapiens with 4 samples.

Results

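The 8 genes described here are those whose symbol in the platform annotation begins with the name of an integrin, laminin or collagen chain, out of 14884 genes that the annotation names. The pattern was meant to collect the adhesion receptors and matrix chains of RWP-1 cells, an established human pancreatic cancer line. It found a different set: 0 integrin subunits, 0 laminin chains and 1 collagen chain, COL26A1. The other members were 3 genes for proteins named after an integrin they bind (ITGB1BP1, ITGB1BP2 and ITGB3BP) and 4 antisense RNAs (COL4A2-AS1, COL18A1-AS1, COL18A1-AS2 and ITGB2-AS1). The integrin subunits, the laminin chains and the other collagen chains are not analysed here. The genes below are therefore called integrin-binding proteins, a collagen chain and antisense RNAs, and none of their values is a level of an integrin or laminin.

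Expression was measured on 4 single-colour arrays, 2 of untreated RWP-1 cells (Ctrl) and 2 of RWP-1 cells given rGAL1, read here as recombinant galectin-1. The labels state no dose, time or vehicle for rGAL1 and do not tell whether the 2 arrays of a group represent separate cultures. Each p-value thus rests on the variation between individual arrays, which could be purely technical. The limma fit also draws each gene's variance toward a value from all probe sets (prior degrees of freedom 2.75, residual 2). An SE can therefore be larger or smaller than the gene's own arrays would give. The array rGAL1 2 is rGAL1 by its title and source name and untreated by its treatment field. It was kept with rGAL1, and the results that rest on it are also given without it and with it counted as Ctrl. Expression is given as log2 RMA values, and with 2 arrays a group their number limits the precision.

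Integrins are paired alpha and beta subunits that span the membrane and hold cells to matrix proteins such as laminins and collagens. The short tail of the beta subunit inside the cell binds adaptors that switch the receptor on or off, and the proteins encoded by ITGB1BP1 and ITGB1BP2 bind the tail of the beta1 subunit. Collagens and laminins form the basement membrane and the interstitial matrix. Galectin-1 is a lectin that binds galactose-containing sugars, among them those on integrins and laminins. The comparison of rGAL1 with Ctrl asks which transcripts change when it is added.

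No difference between rGAL1 and Ctrl passed the test in any of the 8 genes. The largest differences were those of COL4A2-AS1, 0.22 log2 units higher in rGAL1 (SE 0.11), and COL26A1, 0.21 log2 units lower (SE 0.12). In limma, 0 of 8 genes passed an adjusted p under 0.05 and 0 of 8 an unadjusted p under 0.05. Over all 14884 named genes, 0% passed the first threshold and 2.98% the second. Of the 8 genes, 5 had a higher mean in rGAL1 and 3 a lower one, with a median difference of 0.042 log2 units against 0.0056 over all named genes. Both rGAL1 arrays lay above both Ctrl arrays in 2 of the 8, where 20.2% of named genes did so, and below them in 1 of the 8, where 17.0% did so. These shares are near those over all named genes.

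Levels were read against 2 marks, since no call of detection came with the values. The dim level is the median of all probe sets, 4.70 on the log2 scale. The reference level, 5.91, is the 90th percentile of 46 genes restricted to other tissues such as retina, muscle, liver and germ line. By these marks COL26A1 and ITGB1BP1 were above the reference level, ITGB3BP, COL18A1-AS1 and ITGB2-AS1 lay between the marks, and ITGB1BP2, COL4A2-AS1 and COL18A1-AS2 were dim. Of all named genes, 48.4% were above the reference level. Of the 46 reference genes themselves, 5 were above it, 18 lay between the marks and 23 were dim. A level between the marks or below them is thus not told apart from that of genes restricted to other tissues. Each gene was on the same side of both marks on all 4 arrays. Probe sets differ in how brightly they report the same amount of RNA, so the levels do not order the genes by abundance.

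**Figure D1:**
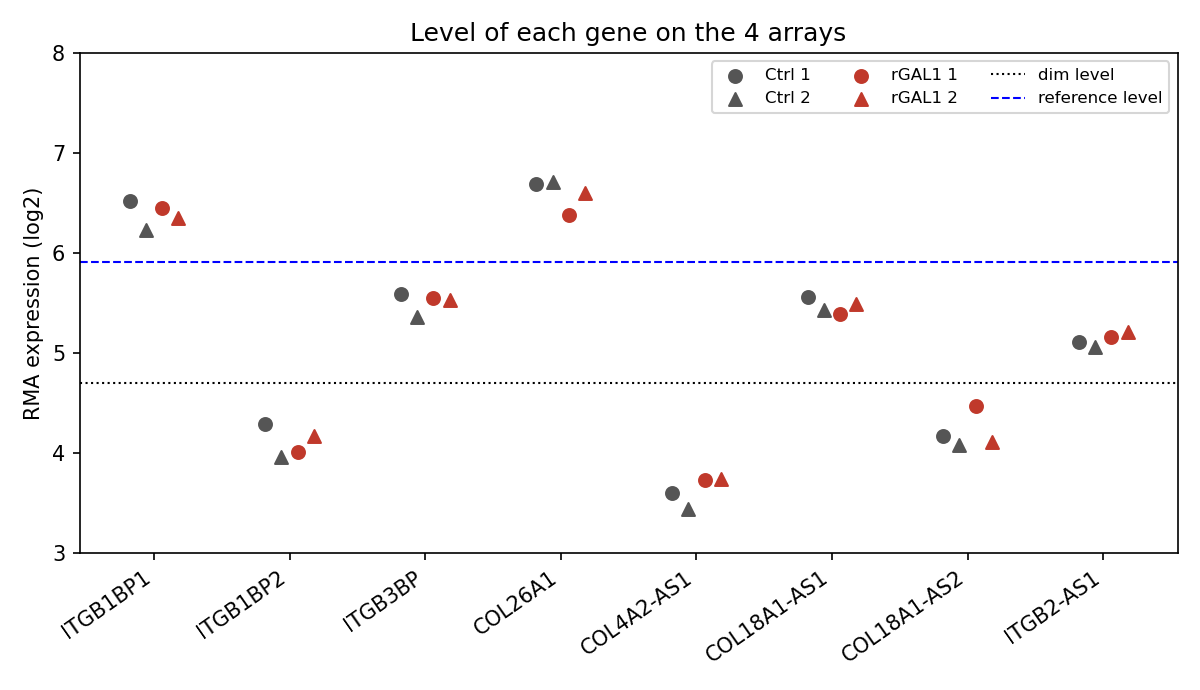
RMA expression (log2) of the 8 genes on each of the 4 arrays, with Ctrl in grey, rGAL1 in red, circles for arrays numbered 1 and triangles for arrays numbered 2. The dotted line is the dim level of 4.70 and the dashed line the reference level of 5.91; only COL26A1 and ITGB1BP1 lie above the dashed line, and each gene's 4 points lie within 0.39 log2 units.

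ITGB1BP1 encodes ICAP-1, an adaptor that binds the cytoplasmic tail of the integrin beta1 subunit and competes there with talin, which activates the receptor. Its log2 level was 6.52 in Ctrl 1, 6.23 in Ctrl 2, 6.45 in rGAL1 1 and 6.35 in rGAL1 2. Both rGAL1 arrays lay between the 2 Ctrl arrays, which were the highest and the lowest of the 4. The difference was 0.024 log2 units (SE 0.14, 95% interval -0.34 to 0.39; limma adjusted p = 0.994). The interval leaves room for a change of up to 0.39 log2 units upward or 0.34 downward. On the RefSeq annotation (GRCh38.p14), ITGB1BP1 is on chromosome 2 and overlaps ASAP2 on the other strand.

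ITGB1BP2 encodes melusin, a protein of striated muscle that binds the same integrin tail. It was dim in these cells, with log2 levels of 4.29 in Ctrl 1, 3.95 in Ctrl 2, 4.01 in rGAL1 1 and 4.17 in rGAL1 2. The rGAL1 arrays again lay between the Ctrl arrays. The difference was -0.034 log2 units (SE 0.15, 95% interval -0.44 to 0.37; limma adjusted p = 0.992). Between the arrays numbered 1 it was -0.28 and between those numbered 2 it was 0.21. The gene is on chromosome X and overlaps no other gene in that annotation.

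ITGB3BP was named for binding the integrin beta3 subunit and is also known as CENP-R, a protein of the inner kinetochore that sits at centromeres. Its log2 level was 5.59 in Ctrl 1, 5.36 in Ctrl 2, 5.55 in rGAL1 1 and 5.52 in rGAL1 2. The rGAL1 arrays lay 0.027 log2 units apart and within the range of the Ctrl arrays, which were 0.23 apart. The difference was 0.060 log2 units (SE 0.12, 95% interval -0.26 to 0.38; limma adjusted p = 0.981). ITGB3BP is on chromosome 1 and overlaps EFCAB7, which is on the opposite strand.

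COL26A1, on chromosome 7, encodes the chain of collagen XXVI, a short collagen that carries an EMI domain and is also known as EMID2. It was the only collagen chain given a single symbol in the annotation used here. Its log2 level was 6.69 in Ctrl 1, 6.71 in Ctrl 2, 6.38 in rGAL1 1 and 6.60 in rGAL1 2. Neither rGAL1 array reached the level of a Ctrl array, and rGAL1 1 was lower than rGAL1 2 by 0.22 log2 units. The log2 means (± SD, n = 2) were 6.70 ± 0.0097 for Ctrl and 6.49 ± 0.16 for rGAL1. The difference was -0.21 log2 units (SE 0.12, 95% interval -0.53 to 0.10), a 1.16-fold lower level that did not pass (limma adjusted p = 0.922, unadjusted p = 0.140). Its size was above that of 87.5% of named genes. It depended on which rGAL1 array was used: -0.10 without rGAL1 1 and -0.32 without rGAL1 2. With rGAL1 2 counted as Ctrl it was -0.29 (limma adjusted p = 0.980).

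The 4 antisense RNAs are long noncoding RNAs that overlap the gene they are named for. COL4A2-AS1 lies on chromosome 13 within the region of COL4A2, a chain of the basement membrane collagen IV. COL18A1-AS1 and COL18A1-AS2 lie on chromosome 21 with COL18A1, the basement membrane collagen whose end fragment is endostatin. For these 3 RNAs the RefSeq start sites (GRCh38.p14) are on the strand opposite to that of the collagen gene. ITGB2-AS1, also on chromosome 21, overlaps ITGB2, the beta subunit of the leukocyte integrins. The sources used here do not say how well the array's probes tell the strands apart. The values of these RNAs are not read as levels of the sense gene, and a part of its signal in them was not tested.

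COL4A2-AS1 had log2 levels of 3.60 in Ctrl 1, 3.44 in Ctrl 2, 3.73 in rGAL1 1 and 3.74 in rGAL1 2. Both rGAL1 arrays lay above both Ctrl arrays, at levels below the dim mark throughout. The log2 means (± SD, n = 2) were 3.52 ± 0.12 for Ctrl and 3.74 ± 0.011 for rGAL1. The difference was 0.22 log2 units (SE 0.11, 95% interval -0.073 to 0.51), a 1.16-fold higher level (limma adjusted p = 0.919, unadjusted p = 0.111). It was 0.13 without Ctrl 2 and 0.30 without Ctrl 1. Without rGAL1 2 it was 0.21, and with that array counted as Ctrl it was 0.13. COL4A2-AS1 and COL26A1 were the members whose groups did not overlap and whose difference reached 0.2 log2 units in size, as in 11.6% of named genes.

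ITGB2-AS1 had log2 levels of 5.11 in Ctrl 1, 5.05 in Ctrl 2, 5.16 in rGAL1 1 and 5.21 in rGAL1 2. Both rGAL1 arrays lay above both Ctrl arrays, the nearest of them by the same 0.05 log2 units that separate arrays of 1 group. The difference was 0.10 log2 units (SE 0.100, 95% interval -0.16 to 0.37; limma adjusted p = 0.954). It was 0.079 without rGAL1 2 and 0.035 with that array counted as Ctrl. ITGB2 is an integrin of leukocytes, and of 5 measured leukocyte markers 0 were above the reference level and 5 lay between the marks. The summed linear level of these markers was 158 to 176 in Ctrl and 168 to 192 in rGAL1, and its part in the value of ITGB2-AS1 was not tested.

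COL18A1-AS1 had log2 levels of 5.56 in Ctrl 1, 5.43 in Ctrl 2, 5.39 in rGAL1 1 and 5.49 in rGAL1 2, and the groups overlapped. Its difference was -0.053 log2 units (SE 0.11, 95% interval -0.34 to 0.24; limma adjusted p = 0.981), and -0.10 both without rGAL1 2 and with that array counted as Ctrl. COL18A1-AS2, dim on all 4 arrays, had log2 levels of 4.17 in Ctrl 1, 4.08 in Ctrl 2, 4.47 in rGAL1 1 and 4.11 in rGAL1 2. Here rGAL1 1 stood above the other 3 arrays, which lay within 0.094 log2 units of each other. The difference of 0.16 log2 units (SE 0.16, 95% interval -0.24 to 0.57; limma adjusted p = 0.954) was -0.018 without rGAL1 1. Without rGAL1 2 it was 0.35, and with that array counted as Ctrl it was 0.35 (limma unadjusted p = 0.0354, adjusted p = 0.980). These 2 RNAs overlap the same collagen gene, and their means differed in opposite directions.

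**Figure D2:**
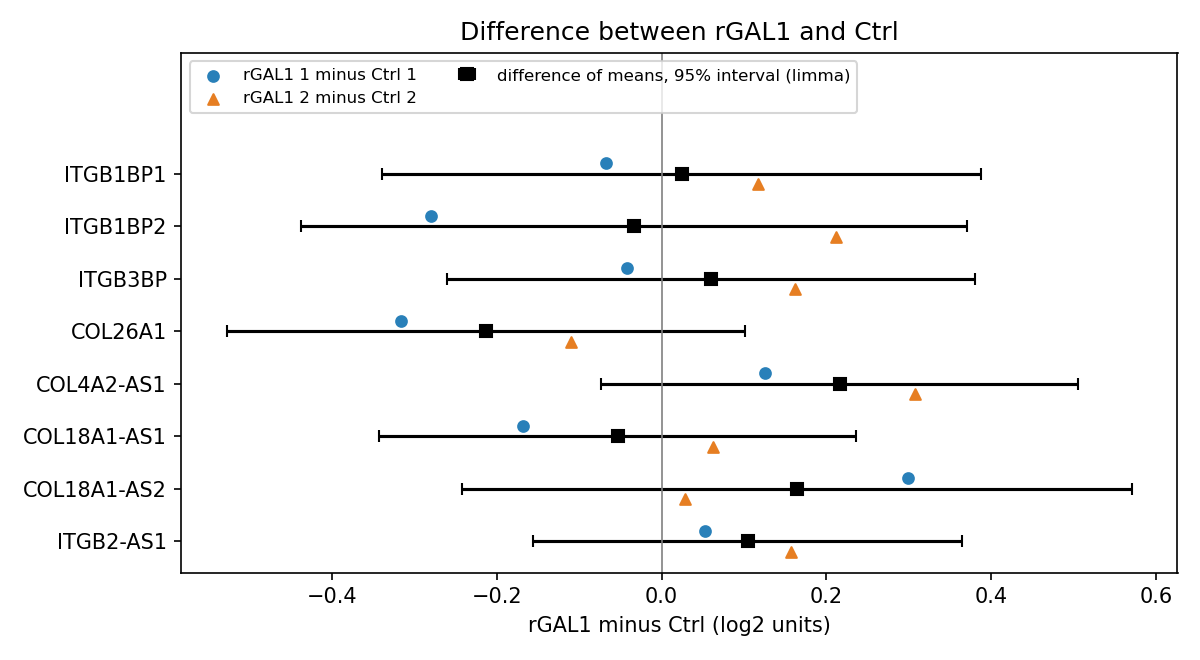
Difference rGAL1 minus Ctrl (log2 units) for the 8 genes: black squares are differences of the group means with 95% intervals from limma, blue circles are rGAL1 1 minus Ctrl 1 and orange triangles are rGAL1 2 minus Ctrl 2. All 8 intervals include 0, and for ITGB1BP1, ITGB1BP2, ITGB3BP and COL18A1-AS1 the blue and orange points lie on opposite sides of 0.

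The order of the Ctrl arrays was shared by most of the genes. Ctrl 2 read lower than Ctrl 1 in 7 of the 8, all but COL26A1, while over all named genes this was so in 48.0%. The gap was widest for ITGB1BP2, at 0.34 log2 units, ITGB1BP1, at 0.29, and ITGB3BP, at 0.23. In the rGAL1 pair, rGAL1 2 read lower than rGAL1 1 in 3 of the 8, against 52.0% of named genes. For all 3 integrin-binding proteins both rGAL1 arrays lay between the Ctrl arrays, so the direction of rGAL1 minus Ctrl followed the Ctrl array used. Without Ctrl 1 the difference was 0.17 for ITGB1BP1, 0.14 for ITGB1BP2 and 0.18 for ITGB3BP. Without Ctrl 2 it was -0.12, -0.20 and -0.055. Without rGAL1 1 it was -0.028, 0.043 and 0.047. Without rGAL1 2 it was 0.077, -0.11 and 0.073, and with that array counted as Ctrl it was 0.086, -0.12 and 0.058. For ITGB1BP1 and ITGB1BP2 the direction thus also changed with the rGAL1 array used.

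**Figure D3:**
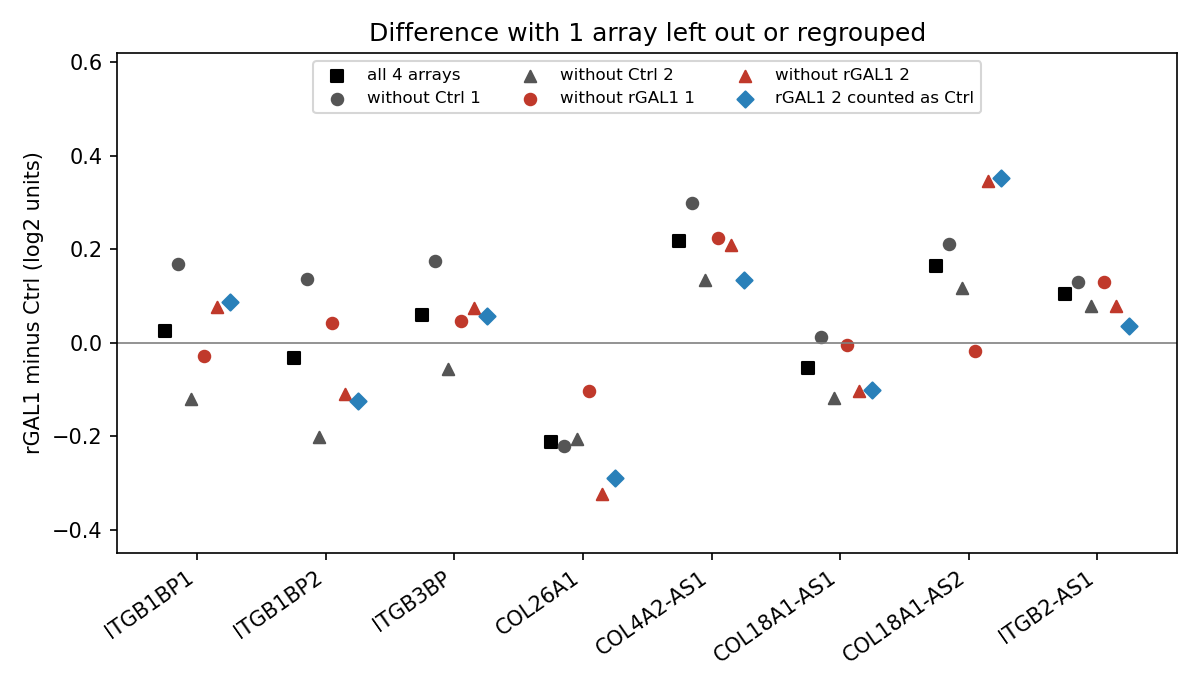
Difference rGAL1 minus Ctrl (log2 units) for the 8 genes with all 4 arrays (black squares), with 1 array left out (grey for a Ctrl array, red for an rGAL1 array) and with rGAL1 2 counted as Ctrl (blue diamonds). COL26A1 stays below 0, between -0.32 and -0.10, COL4A2-AS1 and ITGB2-AS1 stay above 0, and the other 5 genes have points on both sides. The groups of COL26A1, COL4A2-AS1 and ITGB2-AS1 did not overlap, so leaving out 1 array could not change their sign.

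The partners of integrins and collagens were named more fully in the annotation, and are taken from 7 lists written from general knowledge. A gene counts as measured here if a probe set carries its symbol alone in the annotation. Genes not so named may still have probe sets on the array. In the list of focal adhesion and integrin signalling genes, which holds the talins, kindlins and kinases that link integrins to actin, 26 of 33 measured genes were above the reference level. So were 14 of 19 collagen processing enzymes, 8 of 13 other matrix receptors, 7 of 9 membrane partners of integrins and 4 of 6 genes of hemidesmosomes and anchoring. Of other integrin ligands 8 of 23 were above it, and of basement membrane partners 5 of 15. Over all named genes 48.4% were above the reference level, a share that the ligands and the basement membrane partners did not reach. Of epithelial and ductal markers 7 of 8 were above the reference level, and the other, KRT7, lay between the marks. The fibroblast and stellate cell markers had 1 of 7 above the reference level and the endothelial markers 2 of 6. Platelet and megakaryocyte markers had 1 of 3 above it, endocrine markers 1 of 4, leukocyte markers 0 of 5 and acinar markers 0 of 4.

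Across these 7 lists, 0 genes passed an adjusted p under 0.05 in limma, as did 0% of all named genes. An unadjusted p under 0.05 was found for 1 of 23 other integrin ligands and for 0 genes of the other lists. Over all named genes, 2.98% had such a p. That gene was THBS1, thrombospondin-1, a matrix protein that binds integrins and CD47. Its log2 level was 6.21 in Ctrl 1, 6.12 in Ctrl 2, 5.82 in rGAL1 1 and 5.85 in rGAL1 2. The rGAL1 arrays lay below the Ctrl arrays, with a difference of -0.33 log2 units (SE 0.10) that did not pass (limma adjusted p = 0.919, unadjusted p = 0.0241). The difference of THBS1 was -0.29 without Ctrl 1, -0.38 without Ctrl 2, -0.32 without rGAL1 1 and -0.34 without rGAL1 2. THBS1 was singled out by its p and its groups did not overlap, so leaving out 1 array could not change its sign. These values thus add little to the separation already given. With rGAL1 2 counted as Ctrl the difference of THBS1 was -0.24 (limma unadjusted p = 0.254). The median differences of the lists lay between -0.020 for other integrin ligands and 0.047 for other matrix receptors, beside 0.0056 for all named genes. Leaving out 1 array in turn gave medians on both sides of 0 for 5 of the 7 lists. The exceptions were other matrix receptors (0.041 to 0.051) and hemidesmosomes and anchoring (0.034 to 0.12, against 0.046 with all arrays). ITGB1BP1 and ITGB1BP2 are also in the focal adhesion list, which had 19 higher and 14 lower means and a median of 0.018. That median was -0.039 without Ctrl 1, -0.0036 without rGAL1 1, 0.0037 without rGAL1 2 and 0.047 without Ctrl 2.

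**Figure D4:**
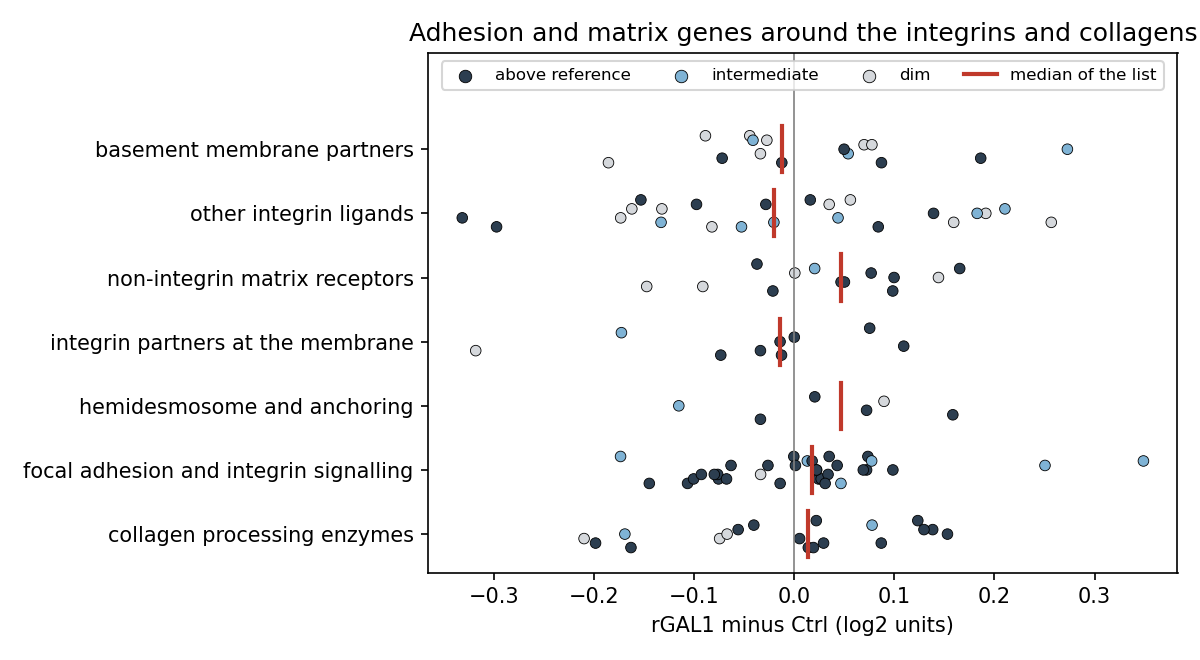
Difference rGAL1 minus Ctrl (log2 units) for every measured gene of the 7 lists, 1 point per gene, shaded by level (dark above the reference level, blue between the marks, pale dim), with a red bar at each list's median. The medians lie between -0.020 and 0.047, and the points of each list fall on both sides of 0.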

How the data were processed

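RNA of RWP-1 cells was labelled with biotin from 100 ng of total RNA with a whole-transcript kit, per the labels' protocols. The deposited values are log2 expression per probe set, made with RMA, which the submitters' processing notes list beside limma. Their versions, settings and genome build were not given in the sources used here. Array medians were 4.69 to 4.72. Of 53617 probe sets, 16098 had 1 gene symbol in the platform annotation; the brightest probe set stood for each of 14884 genes, and each of the 8 members had 1 probe set, whose values no other probe set shared. All probe sets were fitted with limma 3.58.1 in R 4.3.3 (lmFit, eBayes, default prior, two-sided), with Benjamini-Hochberg adjustment over 53617 probe sets. The smallest adjusted p of any probe set was 0.919. The script was tested on simulated data. Same-numbered arrays did not deviate together (r = -0.048), so numbers were not taken to pair arrays. Members, lists and tests were chosen with earlier results of these data known. All members are named; of the list genes, those at an unadjusted p under 0.05, up to 4 per list. Of 92 genes listed for the reference level, 46 were named with a single symbol. Alternatives were 2 normalizations, 2 variance priors, a dim filter, a mean over probe sets, a replicate block, leaving out each array, regrouping rGAL1 2 and exact chain symbols only.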

Additional observations from a re-analysis of the deposited data

How the results depend on the processing

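In limma, 0 of the 8 genes passed an adjusted p under 0.05 in each of the 12 other fits, the replicate block included (0 called with the block and 0 to 0 without 1 array), and 0 had an unadjusted p under 0.05 except with rGAL1 2 counted as Ctrl, where 1 did, COL18A1-AS2. With so few arrays, a count of 0 in each fit says nothing about stability. Leaving out 1 array makes the remaining array of that group take its spread from the others; the ranges were -0.12 to 0.013 for COL18A1-AS1, -0.018 to 0.35 for COL18A1-AS2, -0.12 to 0.17 for ITGB1BP1, -0.20 to 0.14 for ITGB1BP2 and -0.055 to 0.18 for ITGB3BP, each with both signs. COL26A1, COL4A2-AS1 and ITGB2-AS1 kept their direction in every fit that measured them, with 0 reversals. Their groups did not overlap, so leaving out 1 array could not reverse them. The kept direction thus adds little to the separation already given. The median of the basement membrane partners was -0.012, and -0.042 to 0.055 without 1 array, 0.052 above the dim level only and 0.042 with rGAL1 2 counted as Ctrl. That of the membrane partners of integrins was -0.014, and -0.033 to 0.0095 without 1 array and 0.0040 with rGAL1 2 counted as Ctrl; the cause was not tested. Without 1 array the other lists' medians were -0.060 to 0.0056 for other integrin ligands and -0.013 to 0.038 for collagen processing enzymes, beside those given for the remaining lists. The dim filter gave no value for the 3 dim genes. Medians for integrins and laminins were not run, as 0 were named, and the median for collagens is the value of COL26A1. With the highest reference gene as the mark (6.55, chosen after seeing the data), the mean of COL26A1 over the 4 arrays was above it and that of ITGB1BP1 was not; rGAL1 1, at 6.38, and the rGAL1 mean of COL26A1, at 6.49, were below it.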
